A study of Mus musculus with 6 samples.

Results

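The nuclear genes for the subunits of the mitochondrial respiratory chain and the ATP synthase were measured by RNA-seq in the hippocampus of mice that lacked a functional maternal copy of Ube3a. They were chosen by symbol, as the genes named Ndufa, Ndufb, Ndufc, Ndufs, Ndufv or Ndufab with a number, Sdha to Sdhd, and all genes whose names begin with Uqcr, Cox4 to Cox8 or Atp5. This gave 85 of the 25239 genes listed. Of these, 36 belonged to complex I, 4 to complex II, 8 to complex III, 20 to complex IV and 17 to the ATP synthase, with Ndufa4, which was named after complex I but belongs to complex IV, counted there. The 85 included 1 pseudogene symbol, Cox7c-ps1, and 1 factor that joins complexes into supercomplexes, Cox7a2l. The animals were males of the C57BL/6 strain, aged 6 to 8 weeks, of which 3 were wild type (WT, Ube3a m+/p+) and 3 carried the genotype Ube3a m-/p+, and each gave 1 library of whole hippocampus. Ube3a encodes a ubiquitin ligase and nuclear receptor coactivator. Neurons express it mainly from the maternal allele, whose loss in people causes Angelman syndrome. The m-/p+ genotype leaves the paternal copy in place, and the kind of Ube3a allele was not given in the sources used here.

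The respiratory chain takes electrons from NADH at complex I and from succinate at complex II, passes them through ubiquinone, complex III and cytochrome c to complex IV, where oxygen is reduced, and the proton gradient built on the way drives the ATP synthase. Most of its subunits are encoded in the nucleus and imported, and a few hydrophobic core subunits are encoded by mitochondrial DNA. Neurons depend heavily on this pathway to keep ion gradients and synapses working. None of the 13 mitochondrially encoded subunits was among the gene symbols listed, so that part of the chain was not analysed here.

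WT libraries held 7293272 to 8675252 counts on genes and Ube3a m-/p+ libraries 8871052 to 11314409, and 3 counts, taken as the floor, equalled 0.265 to 0.411 CPM (counts of a gene scaled to a common total of counts on genes). The Ube3a level, which counts both alleles, was 104, 141 and 151 CPM in WT mice 1, 2 and 3 and 96.8, 82.9 and 80.6 CPM in Ube3a m-/p+ mice 1, 2 and 3 (log2 fold change -0.58, SE 0.123, edgeR adjusted p = 0.0363), so that all 3 Ube3a m-/p+ mice lay below all 3 WT mice. The mice numbered 1 differed by only -0.10 on the log2 scale, against -0.83 between the mice numbered 2 and 3, and WT mouse 1 was nearer to the Ube3a m-/p+ mice than to the other WT mice, so that its level set this pair apart only weakly. The mice numbered 1 of both genotypes stood apart. On the first principal component of all genes tested, with 42.4% of the variance, WT mice 1, 2 and 3 lay at -2.29, 20.2 and 29.6, and Ube3a m-/p+ mice 1, 2 and 3 at -1.43, -20.5 and -25.6. The same order was seen for base composition. The rank correlation, over 14327 genes, of a gene's deviation in a library with its GC content was 0.0413, -0.514 and -0.577 in the WT mice and 0.0553, 0.532 and 0.538 in the Ube3a m-/p+ mice. Because GC content moved with genotype in the mice numbered 2 and 3, the results are given below as measured and after the GC content and length of transcripts had been regressed out of every library, as well as without the mice numbered 1. After the correction the log2 fold change of Ube3a was -0.17 (edgeR adjusted p = 0.34).

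Of the 85 genes, 80 had enough counts to be tested among 14445 genes. Differential expression was called at a Benjamini-Hochberg adjusted p below 0.05 in edgeR's quasi-likelihood test with a fold change over 1.2. Respiratory chain genes called higher in Ube3a m-/p+ mice numbered 3 of 80 (3.75%), against a background of 1.02% of all genes tested (147 genes). Those called lower numbered 0 of 80, against 0.99% of all genes (143). The 3 genes were Atp5e of the ATP synthase and Ndufa12 and Ndufb7 of complex I. At an unadjusted p below 0.05 in the same edgeR fit, 31 respiratory chain genes (38.8%) were higher, against 12.2% of all genes, and 1 (1.25%), Ndufa10, was lower, against 12.4%. The fold change pointed upward for 67 of the 80 (83.8%), against 50.3% of all genes. Their median log2 fold change was 0.21, with values from -0.49 to 1.17, beside a median of 0.00250 over all genes tested. The median of the 80 genes was 0.0985 after the GC content and length correction, and -0.01 between the mice numbered 1. As whole tissue was measured, more cells with many mitochondria and more RNA per cell cannot be told apart. Neither can be fully told apart from differences between libraries that moved with GC content and transcript length.

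**Figure D1:**
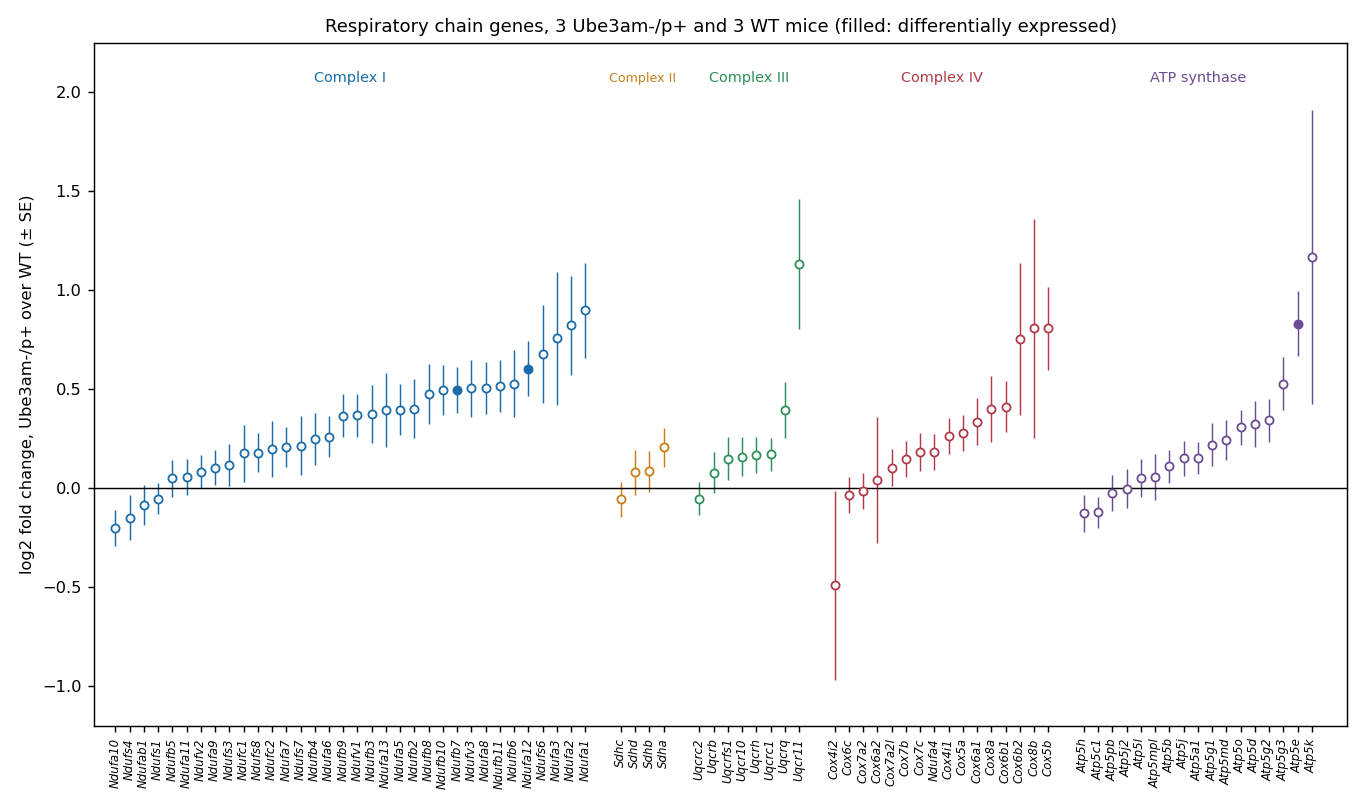
Log2 fold change with SE (vertical axis) of the tested respiratory chain genes reported here, 3 Ube3a m-/p+ against 3 WT mice, ordered within each complex, with filled points for genes called differentially expressed. Atp5e, Ndufa12 and Ndufb7 are filled, and most points lie above 0.

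Atp5e encodes the small epsilon subunit of the central stalk that turns inside the ATP synthase head. Its level was 48.4, 33.1 and 38.0 CPM in WT mice 1, 2 and 3 and 53.9, 78.6 and 76.9 CPM in Ube3a m-/p+ mice 1, 2 and 3. The groups did not overlap, but the lowest Ube3a m-/p+ mouse and the highest WT mouse, both numbered 1, were close. Atp5e rose 1.78-fold (log2 fold change 0.83, SE 0.164, edgeR adjusted p = 0.0364). Ndufa12, an accessory subunit of the matrix arm of complex I, was at 48.1, 39.8 and 34.7 CPM in WT mice and 49.7, 64.6 and 69.6 CPM in Ube3a m-/p+ mice. It rose 1.52-fold (log2 fold change 0.60, SE 0.139, edgeR adjusted p = 0.0422), again with the mice numbered 1 next to each other. Ndufb7, an accessory subunit of the distal membrane arm of complex I, was at 32.6, 26.9 and 32.1 CPM in WT mice and 37.7, 44.3 and 45.2 CPM in Ube3a m-/p+ mice. It rose 1.41-fold (log2 fold change 0.50, SE 0.117, edgeR adjusted p = 0.0427). A two-sided exact permutation test of 3 against 3 mice gave p = 0.1 for each of the 3 genes, which is the smallest value it can give.

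After correction for GC content and length, Atp5e and Ndufa12 were still called, with log2 fold changes of 0.54 (edgeR adjusted p = 0.0108) and 0.49 (edgeR adjusted p = 0.0459). Ndufb7 was not, with 0.13 (edgeR adjusted p = 0.62). With this correction 2 of 80 genes of the respiratory chain were called higher (2.5%), against 0.398% of all genes, and 0 lower, against 0.53%. The 3 calls also rested on individual mice. No respiratory chain gene passed edgeR's test without WT mouse 2, WT mouse 3, Ube3a m-/p+ mouse 2 or Ube3a m-/p+ mouse 3. Of all genes, 0, 0, 0 and 2 passed. In these fits 22 of 81, 26 of 81, 24 of 80 and 23 of 81 had an unadjusted p below 0.05, in either direction. The counts over all genes were 2075, 2159, 2128 and 2429. DESeq2 called 19 of 80 genes higher (23.8%), among them the 3 called by edgeR, against 3.41% of all genes, and 0 lower, against 3.17%.

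**Figure D2:**
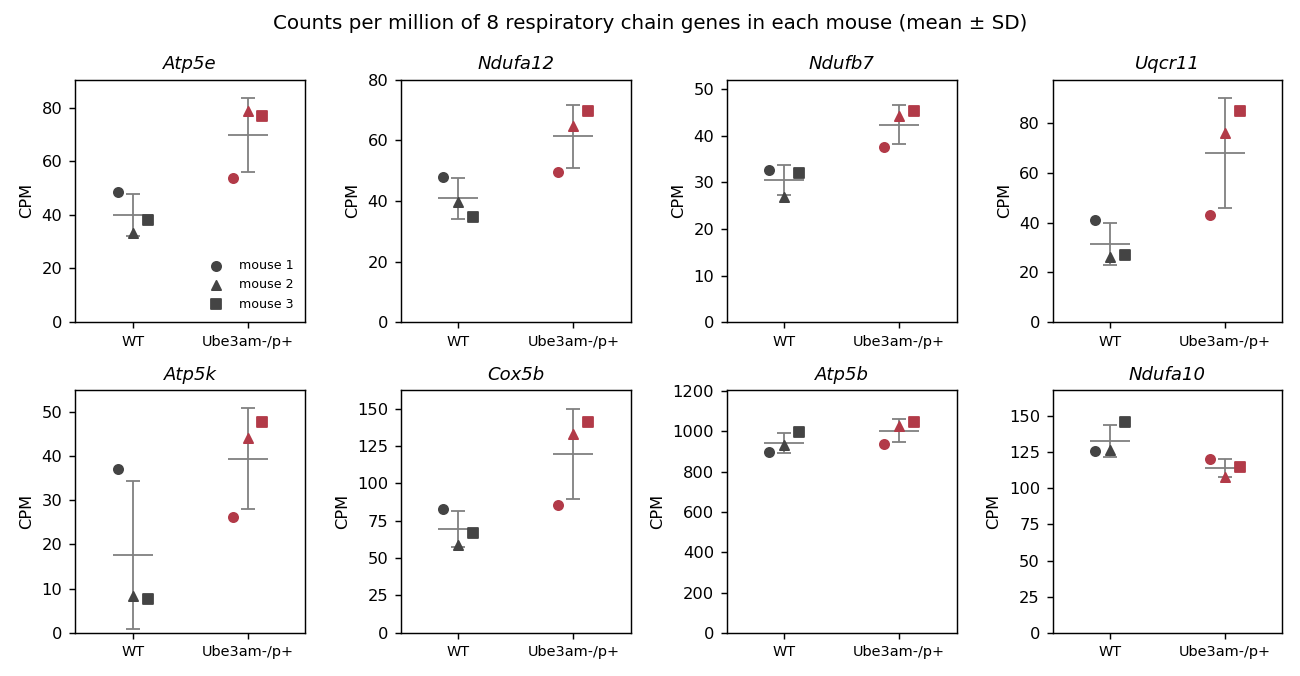
CPM (vertical axis, from 0) of 8 respiratory chain genes in each of 3 WT and 3 Ube3a m-/p+ mice, with the mean and SD in grey and a marker for the number of the mouse. For Atp5e, Ndufa12 and Uqcr11 the mice numbered 1 of both genotypes lie close together, and the mice numbered 2 and 3 lie apart.

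The upstream sequence of Atp5e is shown with that of Uqcr11, the complex III gene with the largest difference, which was not called. They were picked because both carry the core letters of an ETS-type site. This class of site is bound by NRF2 (GABP), a known activator of respiratory chain genes. The stretches end before the first annotated exon base, are written 5′ to 3′ on the strand of the gene, and come from RefSeq (build GRCm38.p6). Capitals mark CCGGAAG or its reverse complement. Neither form stood in the stretches of Ndufb7 and Atp5k, though each promoter had it elsewhere, nor in the promoter of Ndufa12. A link between these letters and the fold changes was not tested.
Atp5e, chr2:174464106-174464225, minus strand: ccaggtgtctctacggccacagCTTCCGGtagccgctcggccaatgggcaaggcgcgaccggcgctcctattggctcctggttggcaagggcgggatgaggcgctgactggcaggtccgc
Uqcr11, chr10:80406831-80406950, minus strand: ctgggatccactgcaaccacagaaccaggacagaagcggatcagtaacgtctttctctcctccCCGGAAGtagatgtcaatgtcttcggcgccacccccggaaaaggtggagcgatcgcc
RefSeq promoters, from 250 bases before to 50 after a start, were matched for 69 of the 85 genes, with 74 promoters in all. On either strand, CCGGAAG stood in 23% of these and in 8.86% of all 32851 promoters of that length. The NRF1 core GCATGCGC stood in 13.5% against 2.71%, and the YY1 letters AAGATGGCG in 9.46% (7 promoters) against 1.40%. The ERR letters TCAAGGTCA stood in 2.7%, which were only 2 of the 74 promoters, against 0.423%. The general promoter letters CCAAT stood in 41.9% against 37.4%, GGGCGG in 40.5% against 35.7% and TATAAA in 12.2% against 13.6%. The median GC content was 57.5% in these 74 promoters and 52.7% in all promoters, and its part in these shares was not tested. CCGGAAG and GCATGCGC cannot overlap each other by more than a few letters, and a match describes the letters and not binding.

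Levels differed between mice of 1 genotype. Summed over the 85 genes, the level was 8097, 7647 and 7898 CPM in WT mice 1, 2 and 3 and 8075, 9282 and 9512 CPM in Ube3a m-/p+ mice 1, 2 and 3. Ube3a m-/p+ mouse 1 thus lay within the WT range, and the other two lay above it. Between the mice numbered 1, the median log2 difference over the 80 genes was -0.01, with 37 above 0. Between the mice numbered 2 and 3 it was 0.30, with 67 above 0, beside a median of -0.03 over all genes. Without the mice numbered 1, 41 of 80 respiratory chain genes were called higher by edgeR (51.2%), against 13.6% of all genes. Called lower were 2 (2.5%), Ndufa10 and Ndufs4, against 14.6%. This fit was not corrected for GC content or length, and leaving out these mice was chosen after seeing the data. It kept only libraries whose levels moved with GC content, in opposite directions in the genotypes. Without WT mouse 1 alone, 23 of 81 were called higher (28.4%), against 8.96%, and 0 lower, against 8.67%. All 3 Ube3a m-/p+ mice were above all 3 WT mice for 16 of 80 genes (20.0%), against 10.8% of all genes. All 3 were below for Ndufa10, Ndufs1 and Atp5c1 (3.75%), against 14.2%.

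**Figure D3:**
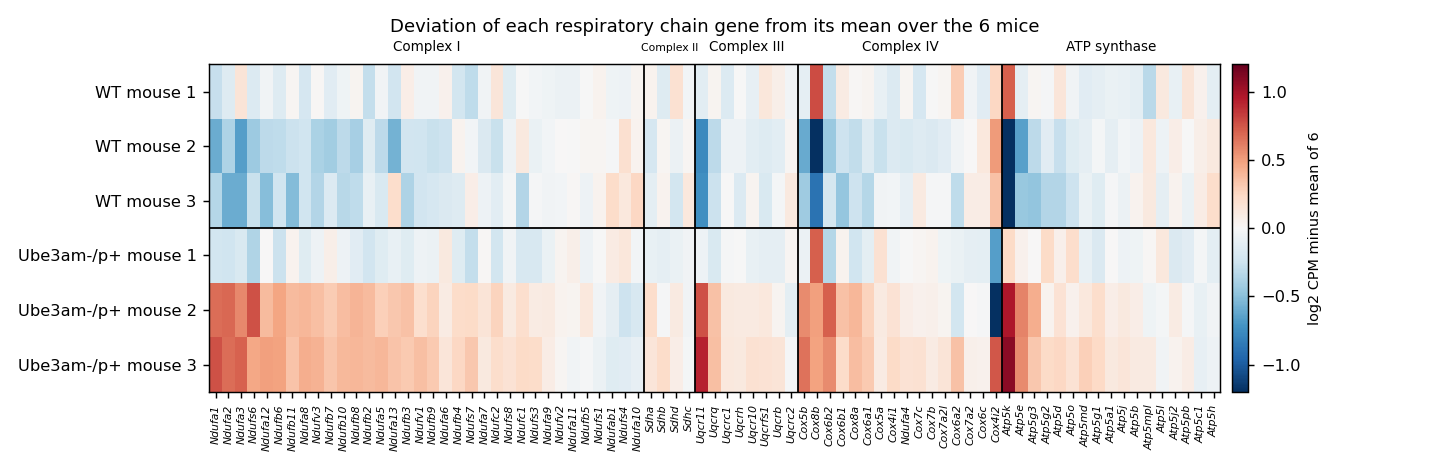
Deviation of log2 CPM from the mean of the 6 mice (colour, limited at 1.2 in either direction) for the tested respiratory chain genes reported here (columns, by complex) in each mouse (rows). Ube3a m-/p+ mice 2 and 3 are above the mean for most genes, WT mice 2 and 3 below it, and the mice numbered 1 near it.

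Complex I had the highest median of the complexes, at a log2 fold change of 0.37 over 35 genes tested, of which 31 were above 0. Its summed level was 1960 ± 75.6 CPM in WT mice and 2299 ± 252 CPM in Ube3a m-/p+ mice (SD, n = 3 each). The 7 nuclear core subunits, which hold the flavin and the iron-sulfur clusters, had a median of 0.16, and the 28 accessory subunits a median of 0.39. With GC content and length regressed out, these medians were 0.03, with 4 of the 7 above 0, and 0.17. None of the core subunits was called. Ndufv1, which binds NADH and the flavin, was the core subunit with the largest value, at 108, 93.9 and 94.9 CPM in WT mice and 107, 128 and 143 CPM in Ube3a m-/p+ mice (log2 fold change 0.37, SE 0.109, edgeR adjusted p = 0.0688). Ube3a m-/p+ mouse 1 lay within the WT range for this gene.

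Other core subunits had smaller values. Ndufs7, which carries the last iron-sulfur cluster before ubiquinone, was at 0.21 on the log2 scale (SE 0.148), Ndufs8, another iron-sulfur subunit, at 0.18 (SE 0.100), and Ndufs3 at 0.12 (SE 0.108). For Ndufv2, next to Ndufv1, the mice spanned 89.6 to 94.1 CPM in WT and 95.6 to 96.6 CPM in Ube3a m-/p+, a difference of 0.08 (SE 0.0835). Ndufs1, the large iron-sulfur subunit, was at 147, 145 and 147 CPM in WT mice and 143, 139 and 136 CPM in Ube3a m-/p+ mice. The groups did not overlap, yet the log2 fold change was only -0.05 (SE 0.0795, edgeR adjusted p = 0.71).

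Among the accessory subunits, the largest log2 fold changes were those of Ndufa1 (0.90, SE 0.241, edgeR adjusted p = 0.0725) and Ndufa2 (0.82, SE 0.251, edgeR adjusted p = 0.103). Ndufa1, a small X-linked membrane subunit needed to assemble the complex, was at 21.9, 17.6 and 21 CPM in WT mice and 22.9, 42.5 and 45.2 CPM in Ube3a m-/p+ mice. Ndufa2, a small subunit of the matrix arm, was at 27.3, 23.5 and 20.2 CPM in WT mice and 25.8, 49.1 and 48.7 CPM in Ube3a m-/p+ mice. In both genes Ube3a m-/p+ mice 2 and 3 stood high, while mouse 1 was near or within the WT range. Ndufa8, a subunit on the intermembrane face, was at 50.1, 48.8 and 48.8 CPM in WT mice and 52.2, 76.0 and 78.2 CPM in Ube3a m-/p+ mice, without overlap (0.51, SE 0.132, edgeR adjusted p = 0.0544). Ndufb10 and Ndufb11, both of the distal membrane arm, came as close to the threshold, with values of 0.50 (edgeR adjusted p = 0.0513) and 0.51 (edgeR adjusted p = 0.0527). At the other end were Ndufa10, a large accessory subunit of the membrane arm, and Ndufs4, an accessory subunit of the matrix arm whose loss causes Leigh syndrome. Ndufa10 was at 126, 127 and 146 CPM in WT mice and 120, 108 and 114 CPM in Ube3a m-/p+ mice, without overlap (log2 fold change -0.20, SE 0.0896, edgeR adjusted p = 0.18). Ndufs4 was at 43.7, 52.1 and 49.9 CPM against 50.1, 38.4 and 41.5 CPM, with overlap (-0.15, SE 0.115). The remaining accessory subunits lay between -0.09 (Ndufab1, the acyl carrier protein) and 0.76 (Ndufa3, a small membrane subunit). Per kilobase of transcript, Ndufb9 (135 CPM per kb) and Ndufb8 (103 CPM per kb) had the highest levels in complex I. Ndufs5, an accessory subunit of the membrane arm, was listed at 0 in all 6 libraries, as were the assembly factors Sco2 and Pet117, so these zeros set no limit on expression. Ndufs5 has 1 named pseudogene, whose part in this count was not tested.

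None of the 4 genes of complex II, the only complex whose subunits are all nuclear, was called. Sdha, the flavoprotein that oxidises succinate, was at 353, 297 and 315 CPM in WT mice and 322, 397 and 379 CPM in Ube3a m-/p+ mice (log2 fold change 0.21, SE 0.0972, edgeR adjusted p = 0.20). The groups overlapped through the mice numbered 1. The iron-sulfur subunit Sdhb was at 0.08 (SE 0.104), and the membrane anchors Sdhd and Sdhc at 0.08 (SE 0.113) and -0.06 (SE 0.0888). The median of the complex was 0.08, and Sdha had the highest level per kilobase (119 CPM per kb), before Sdhb (67.8).

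Complex III had a median log2 fold change of 0.16, with 7 of 8 genes above 0 and none called. Uqcr11, its smallest accessory subunit, stood apart. It was at 41.1, 26.4 and 26.9 CPM in WT mice and 43.1, 76.1 and 84.9 CPM in Ube3a m-/p+ mice, so that all Ube3a m-/p+ mice lay above all WT mice, but mouse 1 by little (log2 fold change 1.13, SE 0.329, edgeR adjusted p = 0.12). Uqcrq, a small subunit next to cytochrome b, was at 65.4, 51.5 and 53.6 CPM against 56.5, 81.8 and 82.4 CPM (0.39, SE 0.142). The redox and core subunits among these 8 genes differed less. Cyc1, the gene of cytochrome c1, is also part of complex III but lay outside the choice by symbol. Cyc1 was at 0.36 (SE 0.101, edgeR adjusted p = 0.0609), without overlap, and at 0.18 after the GC content and length correction. The Rieske protein Uqcrfs1, which passes electrons on to cytochrome c1, was at 0.15 (SE 0.109), Uqcrc1 at 0.17 (SE 0.0834) and Uqcrc2 at -0.05 (SE 0.0834), and Uqcrb, which binds near ubiquinone, at 0.08 (SE 0.104). Uqcrh, the hinge protein beside cytochrome c, and Uqcr10 were at 0.17 (SE 0.0916) and 0.16 (SE 0.0988). Per kilobase, Uqcrq (161 CPM per kb) and Uqcr10 (158) had the highest levels.

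In complex IV, 13 of 16 genes tested were above 0, with a median of 0.22 and none called. Cox5b, a zinc-binding subunit on the matrix side, was at 82.9, 58.8 and 66.5 CPM in WT mice and 85.2, 133 and 141 CPM in Ube3a m-/p+ mice (log2 fold change 0.81, SE 0.209, edgeR adjusted p = 0.0736). The groups did not overlap, and the value was 0.74 after the correction. Its partner Cox5a was at 84.0, 74.2 and 86.9 CPM against 101, 96.5 and 95.9 CPM (0.28, SE 0.0903, edgeR adjusted p = 0.0835), and here Ube3a m-/p+ mouse 1 was the highest. The lowest values were those of Cox4i2 (-0.49, SE 0.478), from 77 counts in all, and Cox6c (-0.03, SE 0.0922). Cox7b, Cox7c, Ndufa4 and Cox7a2l lay between 0.10 and 0.18.

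Several subunits of complex IV exist as tissue isoforms, and the hippocampus had the widely expressed form of each. Per kilobase of transcript, over all 6 mice, Cox4i1 exceeded Cox4i2, which is known from lung, 219-fold, with 150-fold to 659-fold in single mice. Cox8a exceeded the heart form Cox8b 185-fold, Cox6a1 the heart form Cox6a2 122-fold, Cox6b1 the testis form Cox6b2 46.7-fold and Cox7a2 the heart form Cox7a1 45.7-fold. Cox7b was at 73.6 CPM per kb and the testis form Cox7b2 at 0.278, from 8 counts. The minor forms tested were at or under 3.04 CPM in every mouse, with log2 fold changes of 0.81 (SE 0.553) for Cox8b, 0.75 (SE 0.385) for Cox6b2 and 0.04 (SE 0.319) for Cox6a2. The major forms were at 0.40 (SE 0.168) for Cox8a, 0.41 (SE 0.128) for Cox6b1, 0.34 (SE 0.12) for Cox6a1, 0.26 (SE 0.0900) for Cox4i1 and -0.01 (SE 0.0926) for Cox7a2. Cox8a and Cox6a1 were, at 489 and 432 CPM per kb, the most abundant of the complex. Their values fell close to 0 after the correction, to 0.03 and -0.03. Untested for low counts were Cox7a1 (48 counts in all), Cox7b2 (8), Cox7c-ps1 (11) and Cox8c (0).

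The ATP synthase had a median of 0.15, with 13 of 17 genes above 0. Its most abundant genes were those of the catalytic head, Atp5b (beta subunit, 508 CPM per kb) and Atp5a1 (alpha subunit, 302 CPM per kb). Atp5b was at 896, 933 and 998 CPM in WT mice and 938, 1027 and 1046 CPM in Ube3a m-/p+ mice (log2 fold change 0.11, SE 0.0844). Atp5a1 was at 705, 692 and 736 CPM against 746, 787 and 805 CPM, without overlap, and a difference of 0.15 (SE 0.0807, edgeR adjusted p = 0.26). In the central stalk, beside Atp5e at 0.83, the delta subunit Atp5d was at 0.32 (SE 0.118), and the gamma subunit Atp5c1 at -0.12 (SE 0.079), with 168, 170 and 173 CPM in WT mice and 160, 152 and 152 CPM in Ube3a m-/p+ mice.

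The ring of c subunits is encoded by Atp5g1, Atp5g2 and Atp5g3, which make the same mature protein. Atp5g3 was at 133, 105 and 93.9 CPM in WT mice and 132, 177 and 163 CPM in Ube3a m-/p+ mice (0.53, SE 0.134, edgeR adjusted p = 0.0549), Atp5g2 at 0.34 (SE 0.108) and Atp5g1 at 0.22 (SE 0.109). In the peripheral stalk, OSCP (Atp5o) was at 0.31 (SE 0.0905) and subunit d (Atp5h) at -0.13 (SE 0.094). The remaining genes of the peripheral stalk and membrane part lay between -0.02 (Atp5pb, subunit b) and 0.24 (Atp5md). Atp5k, the e subunit that helps synthase dimers form, had the largest log2 fold change of the 80 genes and the widest error. It was at 37.0, 8.30 and 7.54 CPM in WT mice and 26.3, 44.0 and 47.6 CPM in Ube3a m-/p+ mice, with WT mouse 1 above Ube3a m-/p+ mouse 1 (1.17, SE 0.742, edgeR adjusted p = 0.41). Atp5k has 4 named pseudogenes, and reads that aligned to several places amounted to 4.15%, 5.61% and 5.77% of all reads in WT mice and 4.06%, 3.71% and 3.77% in Ube3a m-/p+ mice. Ndufa12, which was called, and Cox5b have 1 named pseudogene each. The part of such reads in the levels of these 3 genes was not tested. The 9 tested genes with a named pseudogene had a median of 0.17, and the other 71 a median of 0.21.

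Transcript length moved with these values. The respiratory chain genes have short transcripts, with a median of 751.5 bp against 2928 bp for all genes tested, and similar GC content (51.7% against 50.6%). The 35 genes with transcripts up to 700 bp had a median log2 fold change of 0.34, the 24 over 700 and up to 1200 bp 0.26, and the 21 over 1200 bp 0.11. All genes of the same length classes, these genes included, had medians of 0.23, 0.15 and -0.01. The median of each class of respiratory chain genes was thus above that of all genes of its length. These values are uncorrected, and GC content was not matched within the classes. Across the 80 genes, which share the same 6 libraries and are not replicates, the log2 fold change had a Pearson r of -0.44 with log2 transcript length and 0.32 with GC content. Across all 14327 genes with a length these were -0.24 and 0.57.

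**Figure D4:**
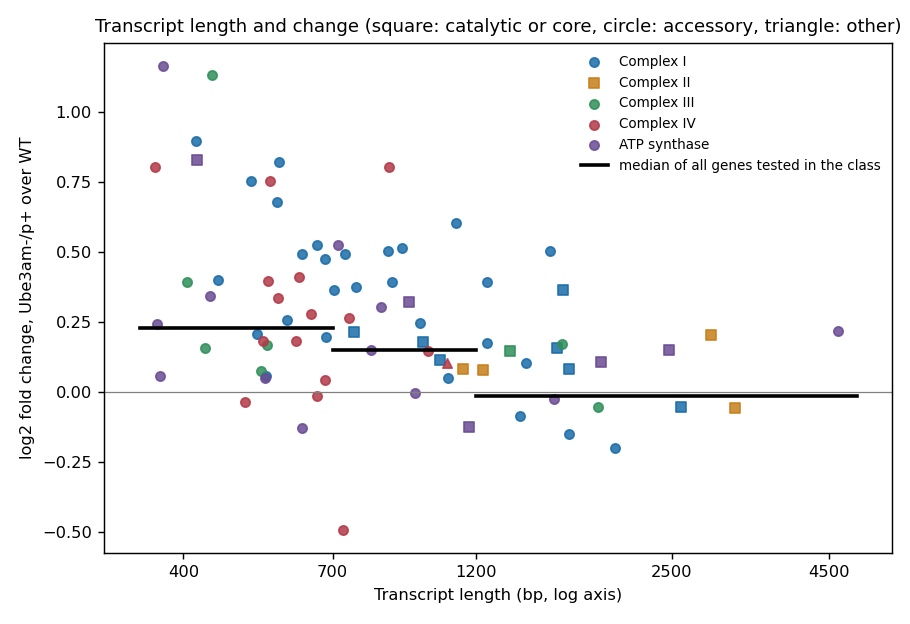
Log2 fold change (vertical axis) against transcript length in bp (horizontal, log axis) for the 80 tested respiratory chain genes, coloured by complex and shaped by role, with black bars for the median of all genes tested in each of 3 length classes. The largest values belong to short transcripts, and the class medians of all genes go from 0.23 to -0.01.

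The correction for GC content and length lowered the value of 64 of the 80 genes. The median of the 80 genes was then 0.0985, with 56 above 0, beside a median of -0.00744 over all genes. Complex I was at 0.12, complex II at 0.02, complex III at 0.06, complex IV at 0.08 and the ATP synthase at 0.06. In the 3 length classes the respiratory chain genes were at 0.13, 0.07 and 0.07, and all genes at 0.02, -0.00175 and -0.00800. The genes with the largest uncorrected values stayed above 0 but kept unequal parts of them. Atp5k was at 0.91, Ndufa1 at 0.80, Uqcr11 at 0.75 and Cox5b at 0.74. None of these 4 passed the test, with edgeR adjusted p-values of 0.641, 0.28, 0.221 and 0.304. Ndufa2, with 0.82 before, was at 0.63 (edgeR adjusted p = 0.309), and Cox8b, with 0.81 before, at 0.50 (edgeR adjusted p = 0.748). Atp5e, with 0.83 before, was at 0.54 and passed. In 17 genes the sign changed.

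**Figure D5:**
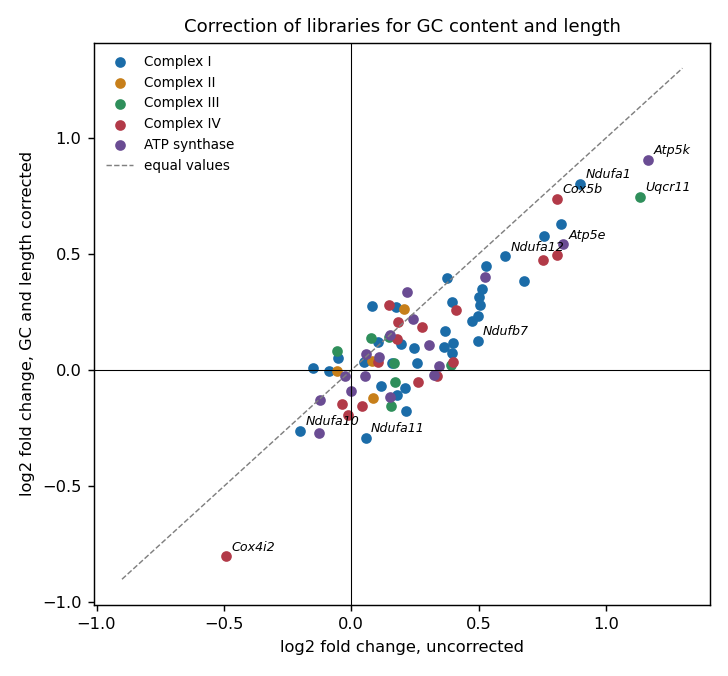
Log2 fold change with GC content and transcript length regressed out of each library (vertical axis) against the uncorrected value (horizontal axis) for the 80 tested respiratory chain genes, with a dashed line of equal values. Most points lie below the line, with 67 above 0 before and 56 after the correction.

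Genes that build or serve the chain were read from lists apart from the 85. Of 47 assembly factors tested, 1 rose, 1 fell and the median was 0.11. Uqcc2, which is needed to assemble complex III, rose (log2 fold change 0.65, edgeR adjusted p = 0.0362). Lyrm7, a chaperone of the Rieske protein, fell by 0.64 on the log2 scale (edgeR adjusted p = 0.0364). Neither was called after the GC and length correction, with values of 0.27 for Uqcc2 (edgeR adjusted p = 0.239) and -0.46 for Lyrm7 (edgeR adjusted p = 0.0874). Pet100 (0.70), Sdhaf1 (0.60) and Ndufaf8 (0.60), factors of complexes IV, II and I, did not pass the test. None of 28 genes of electron carriers and the citric acid cycle was called, with a median of 0.07. The values of largest size were those of Pdss1 (-0.44) and Coq7 (0.35), which make ubiquinone, and of cytochrome c1 (Cyc1, 0.36). Cyc1 is the complex III gene left out by the choice by symbol. Among 22 regulators of mitochondrial biogenesis, Sirt3, the main mitochondrial deacetylase, rose (0.50, edgeR adjusted p = 0.0388), and the median was -0.06. Sirt3 was not called after the correction (0.31, edgeR adjusted p = 0.092). The largest values of the rest were those of Pparg (-0.76), Tfb1m (-0.57) and Esrrg (-0.44). None of 28 genes of mitochondrial import and the outer membrane was called, with a median of 0.06, and Tomm7 (0.96), Timm13 (0.93) and Tomm5 (0.44), which encode small parts of the import machinery, were the farthest from 0.

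Markers of other cells in the dissection moved in part with genotype. The 7 markers of hippocampal neurons were present in every library, at a summed 10476 to 11379 CPM, with 0 of 7 called. The summed levels of other sets were lower in Ube3a m-/p+ mice, with none of their markers called and single markers in both directions. The 5 interneuron markers summed to 616, 626 and 631 CPM in WT mice and 579, 562 and 554 CPM in Ube3a m-/p+ mice. The 5 oligodendrocyte markers summed to 6602, 6717 and 6663 CPM against 6347, 5624 and 6437 CPM, and the 5 microglia markers to 220, 239 and 241 CPM against 212, 200 and 210 CPM. In these 3 sets the sums of the genotypes did not overlap. The sums of astrocyte markers (1446 to 1590 against 1373 to 1470 CPM) and of endothelial markers (235 to 256 against 214 to 247 CPM) overlapped. At an unadjusted p below 0.05 in edgeR, 2 of 5 interneuron, astrocyte and oligodendrocyte markers and 1 of 5 microglia and endothelial markers were lower. At the same threshold 1 of 5 interneuron and 1 of 5 endothelial markers were higher, and of 7 neuron markers 2 were higher and 1 lower. Over all genes tested, 12.2% were higher and 12.4% lower. The fold change was above 0 for 3 of 5 interneuron and oligodendrocyte markers and 2 of 5 astrocyte, microglia and endothelial markers. The 5 ependyma markers summed to 26.9, 25.9 and 27.8 CPM in WT mice and 37.0, 45.3 and 39.5 CPM in Ube3a m-/p+ mice. All 5 were above 0, and Foxj1 was called in the uncorrected fit. Of 8 markers of meninges 7 were above 0, with a sum of 92.7 to 152 CPM in WT and 94.8 to 177 CPM in Ube3a m-/p+ mice, and Col1a1 was called, but not after the correction (0.54, edgeR adjusted p = 0.0728). The 5 choroid plexus markers summed to 601, 98.9 and 2163 CPM in WT mice and 2251, 1596 and 105 CPM in Ube3a m-/p+ mice, which did not separate the genotypes. Of 5 muscle markers 4 were tested and Myh7 was called in the uncorrected fit. Their sums were 28.2 to 31.7 CPM in WT and 34.1 to 40.8 CPM in Ube3a m-/p+ mice. No defining marker was at 0 in all libraries. The part of these cells in the levels of the respiratory chain genes was not tested.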

How the data were processed

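RNA-seq of total RNA was analysed in the hippocampus of 3 WT and 3 Ube3a m-/p+ mice, 1 library each. The authors deposited counts, which are whole numbers per gene symbol and not normalized. Per the labels' processing notes, STAR 2.7.4a, HTSeq and mm10 were used. The annotation and strand setting are not given in the sources used here. As 27 of the tested respiratory chain genes share exon bases with a gene on the opposite strand, the reads of such pairs may not be separated. Lines that name no gene were left out. Reads on no gene made up 54.1% to 55.1% of the reads listed. Counting error sets the floor of 3 counts. Nothing states that the mice came from separate litters, so p-values measure the spread between these samples.

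Counts were analysed in R 4.3.3 with edgeR 4.0.16: filterByExpr, TMM scaling and a two-sided robust quasi-likelihood test, with genotype as the only factor and Benjamini-Hochberg adjustment over all genes tested. SE is the standard error of the log2 fold change. In the alternative fit, each gene's log2 deviation from its mean over the libraries was fitted in each library. The fit used natural splines (5 degrees of freedom each) of GC content and transcript length (GENCODE, GRCm38, where 118 genes tested had no match). The fitted values entered the edgeR model of the unchanged counts as offsets. DESeq2 1.42.0, other scalings and filters, and fits without each mouse were also run. Leaving out the mice numbered 1 was chosen after seeing the data. Scripts were tested on simulated data.

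The respiratory chain genes and all lists were chosen with earlier results of these data known. Genes named were Ube3a, all called genes, in each complex the 2 highest and 2 lowest fold changes and the 2 highest levels per kilobase, the catalytic subunits (1 gene is counted in the sums, medians and tests but not reported here), the isoforms and the untested genes, and of each other list the called genes and up to 3 more. Further genes were named after their values were seen.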

Additional observations from a re-analysis of the deposited data

How the results depend on the processing

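The 3 respiratory chain genes kept their upward direction under every alternative run. Of 80 respiratory chain genes tested, 3 were called with the fit reported, 19 with DESeq2 and 29 at an unadjusted p with the fold threshold. Without a filter 15 of 83 were called, and with at least 10 counts in every library 5 of 78. Without the mice numbered 1, 43 of 80 were called, 41 higher and 2 lower. Leaving out 1 mouse at a time gave 0 to 29 called, of 79 to 81 tested. Of all 14445 genes tested, 290 were called with the fit reported, 951 with DESeq2 and 2832 at an unadjusted p with the fold threshold. Without a filter 1176 genes were called, and with at least 10 counts in every library 392. After the GC and length correction 133 of 14327 were called. Without the mice numbered 1 there were 4138 of 14631, and with 1 mouse left out 0 to 2582. The causes were not tested. The median log2 fold change of the respiratory chain genes, 0.21, fell to 0.0985 after the correction (I 0.12, III 0.0588, IV 0.0844, ATP synthase 0.0573). Without the mice numbered 1, complex II was at 0.17, biogenesis regulators at -0.11 and import genes at 0.12. With 1 mouse left out, the ATP synthase ranged from 0.12 to 0.22, assembly factors from 0.0432 to 0.18, electron carriers and citric acid cycle from 0.0379 to 0.0857, biogenesis regulators from -0.10 to -0.0339, import genes from 0.0344 to 0.12, and Ube3a from -0.73 to -0.48, where it lost its call without WT mouse 2 or 3 or Ube3a m-/p+ mouse 2 or 3.

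Same-numbered mice deviated from their group means with correlations of -0.285, -0.177 and -0.311. These values cannot decide whether the replicate numbers paired the mice. Outside the mice numbered 1, levels moved with GC content in opposite directions in the genotypes, which could by itself make such correlations negative. With the replicate block, 0 genes and 0 respiratory chain genes were called by edgeR, and Ube3a was at -0.57. In this fit 27 of 80 respiratory chain genes had an unadjusted p below 0.05, against 2422 of all 14445 genes. With the block and the GC and length correction, 48 genes and 1 respiratory chain gene, Atp5e, were called, the respiratory chain median was 0.0950 (I 0.12, III 0.0592, IV 0.0840, ATP synthase 0.0575), and Ube3a was at -0.16, beside -0.17 with the correction alone.

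In the genes below, none of them called in the fit reported, the sign changed. After the correction, without and then with the block, Ndufs1 was at 0.0508 and 0.0515, Ndufs3 at -0.0694 and -0.0762, Ndufs7 at -0.18 and -0.18, Ndufs8 at -0.11 and -0.11, Ndufs4 at 0.0102 and 0.00883, Sdhb at -0.12 and -0.12, Uqcrc1 at -0.0508 and -0.0474, Uqcrc2 at 0.0846 and 0.0839, Uqcr10 at -0.16 and -0.16, Cox4i1 at -0.0493 and -0.0454, Cox6a1 at -0.0252 and -0.0255, Cox6a2 at -0.15 and -0.15, and Atp5d at -0.0190 and -0.0132. The other 4 of the 17 genes whose sign changed were, with the correction alone, Ndufa11 at -0.29, Ndufa7 at -0.0768, Atp5j at -0.12 and Atp5l at -0.0250. Without the mice numbered 1, Atp5pb was at 0.0977. With 1 mouse left out, Sdhb ranged from -0.0214 to 0.16, Sdhd from -0.00947 to 0.20, Cox6a2 from -0.16 to 0.22, Cox6c from -0.11 to 0.0192, Cox7a2 from -0.0588 to 0.0405, and Atp5pb from -0.0880 to 0.0460. The depth left wide errors for genes with few counts, such as Cox4i2 (SE 0.478) and Cox8b (SE 0.553).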
